A study of Arabidopsis thaliana with 8 samples.

Results

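The nucleosome lists of the high digest were compared gene by gene between dexamethasone (dex) and mock treatment, to ask where nucleosomes were listed along genes when the transcription factor LEAFY (LFY) was or was not released into the nucleus. Both groups were root explants of Landsberg erecta Arabidopsis carrying the transgene 35S:LFY-GR, cut from seedlings of 3 weeks and kept for as long as 5 days on a medium that induces callus. The fusion of LFY to a glucocorticoid receptor domain was driven by the viral 35S promoter, which is active in most tissues, so that dex acted on ectopic LFY in callus rather than on LFY in its native tissue. The lists hold no transcript levels, and the callus label was not checked by markers. The dex group received dex for 1 h and the mock group received mock solution for 1 h, with 2 libraries each, and both were cut with the standard (high) amount of micrococcal nuclease. Each group is represented by 1 pooled list of intervals of 140 bp, with 376240 nucleosomes on the 5 nuclear chromosomes for high digest dex and 482098 for high digest mock. Together these are 858338 of the 1417407 nuclear nucleosomes in the 4 lists of the series.

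A nucleosome is a stretch of DNA wrapped around an octamer of core histones, and the nuclease digests the linker DNA between nucleosomes faster than the wrapped DNA. In plant genes the first nucleosome downstream of the transcription start is usually well placed, further ones follow at regular spacing, and the stretch just upstream of the start is often poor in nucleosomes. LFY specifies floral fate and binds sequences with the core CCANTGG, and pioneer factors are those that can bind their site on nucleosomal DNA.

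For each of 27444 protein-coding genes, the centers of listed nucleosomes were counted in the promoter (1000 bp upstream of the annotated start), in the first 500 bp of the gene and in the rest of the gene, called the gene body. A center can lie in windows of several genes and is then counted for each. The dex list held 78.0% as many nucleosomes as the mock list. The main comparisons are therefore given with the full lists and again with the 376240 mock nucleosomes of highest occupancy, called the equal-length mock list. Occupancy, the summit value of the authors' caller, served only for ranking within a list.

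Before the values are read, 1 disagreement has to be stated. Every line of the list labelled high digest dex carries a name that reads as a low digest dex library, whereas the name in the mock list reads as high digest mock. The number of lines, in contrast, fits the label, since it is close to the number of nucleosomes that the study's methods give for high digest dex and not to that for low digest dex. Across the 27444 genes, the promoter counts of the list labelled high digest dex had a Pearson correlation of 0.84 with low digest mock, of 0.72 with high digest mock and of 0.66 with low digest dex. With all 4 lists cut to 242336 nucleosomes the values were 0.78, 0.73 and 0.60 in the same order. Genes are not replicates and neighboring genes share promoter nucleosomes, so these correlations describe the lists only. Each direction below is that of the list labelled high digest dex against the mock list, and with 1 list each no difference has a replicate check.

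The AP1 promoter is shown first, because AP1, a MADS-box regulator of floral fate, is a well known LFY target and its promoter held a CCANTGG site under a listed nucleosome in both lists. AP1 (AT1G69120) spans bases 25982294 to 25986349 of chromosome 1 in TAIR10 coordinates and is read from the minus strand. The site, at 25986515 to 25986521, was centered 169 bp upstream of the start. The nucleosome of the dex list covered chr1:25986432-25986571 and that of the mock list covered chr1:25986482-25986621. Both are printed in the direction of AP1 transcription, with the 7 letters of the motif in capitals.
AP1 promoter nucleosome, high digest dex: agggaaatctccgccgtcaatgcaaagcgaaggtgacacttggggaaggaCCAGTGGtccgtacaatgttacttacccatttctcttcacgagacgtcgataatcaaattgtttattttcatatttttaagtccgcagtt
AP1 promoter nucleosome, high digest mock: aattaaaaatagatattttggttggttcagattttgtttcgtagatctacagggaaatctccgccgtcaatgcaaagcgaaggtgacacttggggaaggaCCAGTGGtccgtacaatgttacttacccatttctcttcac

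In the dex list the center of this AP1 nucleosome lay at -153 bp, 16 bp from the center of the motif. In the mock list it lay at -203 bp, 34 bp from the motif. The 2 centers were 50 bp apart, so that the site was inside the nucleosome in both lists but nearer its middle in the dex list. The dex nucleosome ranked at the 99.0 percentile of occupancy of its own list and the mock nucleosome at the 47.9 percentile of its own. Both lists also placed a nucleosome over the AP1 start, centered at 7 bp, and this one was absent from the equal-length mock list. AP1 thus had 2 promoter centers in the dex list and 2 in the mock list. The 500 bp downstream of the start held 2 centers in each full list and 1 in the equal-length mock list.

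Promoter nucleosomes listed under 1 treatment only are shown next for 4 genes, because these differ in base composition from those listed under both. For each gene, the nucleosome printed is the one of highest occupancy among those wholly upstream of the start with no center within 70 bp in the other full list. Runs of at least 6 A or 6 T, which are stiff and known to disfavor nucleosomes, are in capitals. The sequences are those of the RefSeq reference for TAIR10.1, read on the strand of the gene. This reference is of the Columbia accession, and Landsberg erecta may differ from it.
AT3G61680, listed in dex only, plus strand, chr3:22822952-22823091: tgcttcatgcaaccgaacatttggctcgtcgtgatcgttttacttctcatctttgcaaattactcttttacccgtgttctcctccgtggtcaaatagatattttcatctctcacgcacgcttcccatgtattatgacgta
AT5G41763, listed in dex only, plus strand, chr5:16714032-16714171: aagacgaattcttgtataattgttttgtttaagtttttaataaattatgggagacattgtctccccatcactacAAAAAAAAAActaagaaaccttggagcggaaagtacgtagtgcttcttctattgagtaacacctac
SAC3A, listed in mock only, plus strand, chr2:16423132-16423271: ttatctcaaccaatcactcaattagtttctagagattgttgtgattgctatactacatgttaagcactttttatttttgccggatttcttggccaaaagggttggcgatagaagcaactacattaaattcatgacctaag
IBH1, listed in mock only, plus strand, chr2:17908292-17908431: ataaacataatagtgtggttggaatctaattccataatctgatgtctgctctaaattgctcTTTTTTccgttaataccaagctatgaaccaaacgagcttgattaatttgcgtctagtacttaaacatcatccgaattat

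The GC content of these stretches was 42.1% for AT3G61680 and 32.9% for AT5G41763, both listed in dex, against 35.0% for SAC3A and 32.9% for IBH1, both listed in mock. Over all promoters, 6303 nucleosomes of the dex list had no center within 70 bp in the full mock list, and their median GC content was 38.6%. The 33619 promoter nucleosomes of the mock list with no center within 70 bp in the dex list had a median GC content of 32.1%. Those matched within 20 bp in the other list had a median of 40% in either list. Promoter nucleosomes listed only in mock were thus the most AT-rich of these classes. With the full lists, a run of 6 A or 6 T was held by 30.8% of dex-only nucleosomes (95% Wilson interval 29.7% to 32.0%). Of the mock-only ones, 34.2% held such a run (33.7% to 34.7%). Among matched ones the share was 18.3% in dex and 18.1% in mock, and it was 38.6% among consecutive stretches of 140 bp over all promoters. At equal length the order of dex-only and mock-only reversed for these runs. They were held by 33.26% of dex-only nucleosomes (32.50% to 34.04%) and by 24.998% of mock-only ones (24.31% to 25.70%). The median GC content kept its order, with 38.6% for dex-only and 33.6% for mock-only nucleosomes at equal length. The intervals cover counting error only.

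Promoters had the lowest ratio of dex to mock centers of the 3 windows, and the first 500 bp of genes came closest to the mock level. In the full lists, promoters averaged 2.50 centers per gene in dex and 3.61 in mock, a ratio of 0.693. The first 500 bp averaged 2.13 centers in dex and 2.44 in mock, a ratio of 0.874. Gene bodies averaged 4.27 centers per kb in dex and 5.13 in mock, a ratio of 0.832. The ratio of the whole lists was 0.780, so that promoters lay below it and both windows inside genes lay above it. These ratios describe 1 list against 1 list and carry no replicate error, and the depth behind either list is unknown.

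At equal list length the first 500 bp again had the highest ratio, but gene bodies rather than promoters had the lowest. Promoters averaged 2.50 centers in dex and 2.52 in equal-length mock, a ratio of 0.994. The first 500 bp averaged 2.13 centers in dex and 1.93 in equal-length mock, a ratio of 1.11. Gene bodies averaged 4.27 centers per kb in dex and 4.44 in equal-length mock, a ratio of 0.962. Nucleosomes of the first 500 bp took 15.4% of the dex list, against 13.9% of the equal-length mock list and 13.8% of the full mock list.

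Read by gene, most promoters had fewer centers in the full dex list. Of 27444 genes, 17904 had fewer promoter centers in dex than in mock, 7387 had the same number and 2153 had more, with a median difference of -1 center. A difference of at least 2 centers was found in 9841 genes with fewer (35.9% of all genes) and in 309 with more (1.13%). At equal length the difference was nearly even, with 2434 genes at least 2 lower (8.87%) and 2362 at least 2 higher (8.61%) in dex. The balance of fewer and more thus moved with the length of the mock list, and 40.6% of genes had equal promoter counts at equal length.

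Promoters with no listed nucleosome were more frequent in the full dex list. They made up 13.9% of genes in dex (3816 genes) and 6.10% in mock (1675 genes). At equal length the mock list had 3985 genes with an empty promoter, or 14.5%. In the full lists 2275 genes had a promoter that was empty in dex only and 134 one that was empty in mock only, while 1541 were empty in both. The promoters empty in dex only had a median GC content of 27.1%, below the median of 32.6% over all promoters. Those empty in mock only had 26.55% and those empty in both had 28.9%. Low GC content was thus not particular to promoters empty in dex.

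The first 500 bp showed the opposite balance at equal length. In the full lists 2216 genes had at least 2 fewer centers there in dex (8.07%) and 372 had at least 2 more (1.36%). At equal length 558 genes had at least 2 fewer (2.03%) and 1941 had at least 2 more in dex (7.07%). The share of genes with 3 centers in this window was 32.8% in dex, 27.8% in equal-length mock and 47.1% in full mock. In the occupancy ranks of each list on its own, the median nucleosome of the first 500 bp stood at the 56.4 percentile in dex and at the 49.2 percentile in mock. Of these nucleosomes, 14.5% in dex were above the 90 percentile of their list and 10.2% of mock were above it in theirs. Promoter nucleosomes had nearly the same median rank, the 42.0 percentile in dex and the 42.4 percentile in mock.

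The profile around gene starts places these differences. In bins of 50 bp, both lists had their lowest bins within 200 bp upstream of the start and their highest at 250 to 299 bp downstream. At that peak there were 24.8 centers per 100 genes in dex, 28.2 in full mock and 23.6 in equal-length mock. In the last 50 bp upstream of the start there were 10.2 in dex, 13.5 in full mock and 6.47 in equal-length mock. The ratio of dex to full mock was lowest, 0.610, in the bin from -250 to -201 bp. The ratio of dex to equal-length mock was between 0.920 and 0.967 from -1000 to -201 bp, and it was highest, 1.58, just upstream of the start.

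**Figure D1:**
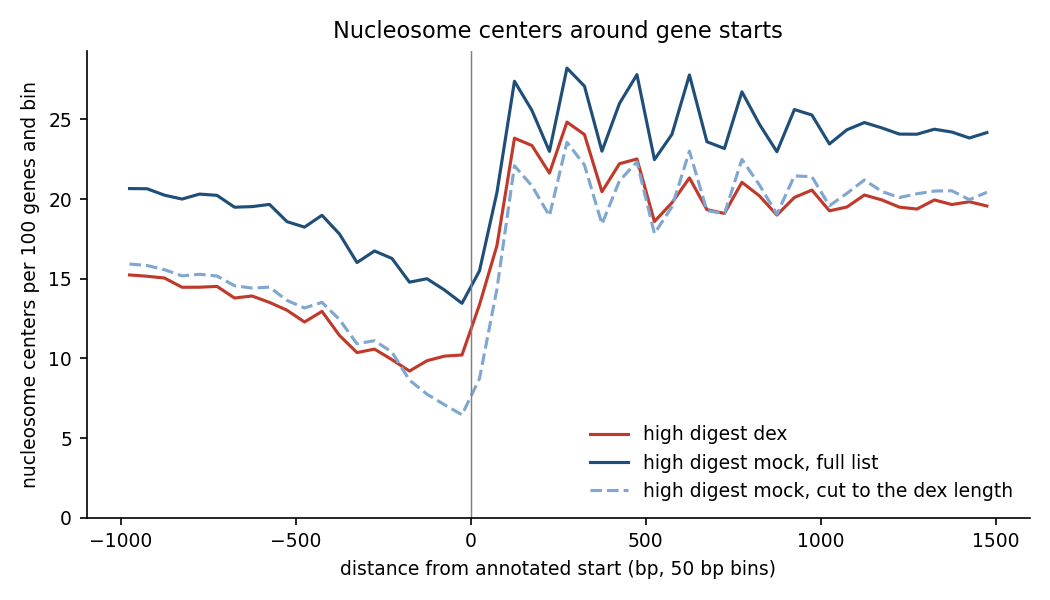
Nucleosome centers per 100 genes (vertical axis) in bins of 50 bp by distance from the annotated start (horizontal axis, bp) for high digest dex, for the full mock list and for the mock list cut to the dex length, over 27444 genes. The dex line lies below full mock in every bin drawn upstream of the start, and it lies farthest above equal-length mock just upstream of the start, at 1.58 times that list.

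A start region of 200 bp upstream to 49 bp downstream was taken from this profile, after its values were seen, to describe which genes carried the difference. A center lay there in 45.7% of genes in dex (45.1% to 46.3%), in 34.0% in equal-length mock (33.4% to 34.6%) and in 59.6% in full mock (59.0% to 60.1%). At equal length, 5641 genes had a start region center in dex but not in mock (20.6%), and 2421 had one in mock but not in dex (8.82%). Both lists had a center in 6911 genes and neither had one in 12471 genes. The direction therefore depends on the length of the mock list, with dex above equal-length mock and below full mock. Of the 5641 genes with a center in dex only, 60.6% had one in the full mock list, 63.0% in low digest dex and 80.1% in low digest mock. Of the 2421 genes with a center in mock only, the shares were 35.9% in low digest dex and 17.0% in low digest mock. Over all genes the shares were 59.6% in full mock, 40.8% in low digest dex and 44.4% in low digest mock.

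GC content separated these genes. When the genes were divided into 5 equal groups by the GC content of the start region, with medians between 25.2% and 39.6%, the share of genes with a center in dex was 6.89% in the lowest group and 81.3% in the highest. In equal-length mock it was 6.29% in the lowest group and 47.9% in the highest, and in full mock it was 22.8% in the lowest and 73.7% in the highest. The dex list thus had more start region centers than even the full mock list in the most GC-rich group, where it averaged 1.05 centers per gene against 0.961. In the most AT-rich group it averaged 0.0690 centers against 0.234 in full mock. The same order held for whole promoters, where the ratio of dex to full mock was 0.431 in the most AT-rich group and 0.895 in the most GC-rich group. At equal length these ratios were 0.908 and 1.08. In the first 500 bp they were 0.652 and 0.991 with the full lists, and 0.973 and 1.19 at equal length. The part of base composition in the difference between the lists was not tested.

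**Figure D2:**
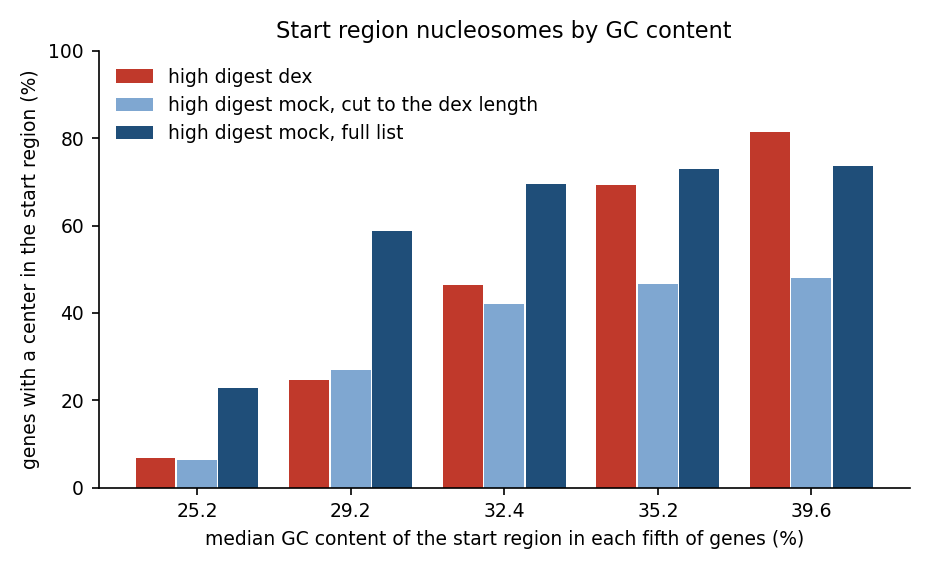
Share of genes with a nucleosome center in the start region (vertical axis, percent) for genes in 5 equal groups by GC content (horizontal axis, median of the group in percent), with bars for high digest dex, equal-length mock and full mock. In the most GC-rich group the bars stand at 81.3% for dex, 47.9% for equal-length mock and 73.7% for full mock, whereas in the most AT-rich group dex and equal-length mock are at 6.89% and 6.29%.

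Gene structure and neighborhood also went with the counts. The 11248 genes with no other annotated gene in their promoter averaged 1.52 promoter centers in dex and 2.84 in mock, a ratio of 0.535. The 16196 genes with another gene there averaged 3.18 in dex and 4.15 in mock, a ratio of 0.768. The median promoter GC content was 29.3% in the first class and 35.7% in the second, so that base composition and neighboring genes move together. At the start region, genes of at least 3000 bp had an equal-length ratio of 1.75 and genes under 1000 bp one of 1.03. Their median start region GC was nearly the same, 32.0% and 32.8%. Dex averaged 0.511 centers in the long and 0.538 in the short genes, and equal-length mock 0.292 and 0.520. Genes with 6 or more exons had a ratio of 1.73 there and genes with 1 exon one of 1.12. Dex averaged 0.531 and 0.500 centers in these exon classes, and equal-length mock 0.306 and 0.446. These ratios thus differed mostly through the equal-length mock list, with dex nearly alike between classes. With the full lists all of these start region ratios lay below 1. They were 0.780 for the long and 0.663 for the short genes, and 0.799 and 0.644 by exon number. The 1266 genes in pericentromeric regions had an equal-length promoter ratio of 1.08, with 1.75 centers in dex and 1.61 in mock. In chromosome arms the ratio was 0.992. With the full lists the promoter ratios were 0.703 in pericentromeric regions and 0.693 in arms. Across the 5 chromosomes the full-list promoter ratio ran only from 0.684 to 0.706.

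The result at equal length also depended on how deep into the lists it was read. When both lists were cut to their 50000 nucleosomes of highest occupancy, the first 500 bp had a ratio of dex to mock of 1.55 and promoters one of 0.836. With 200000 nucleosomes each, the ratios were 1.27 and 0.873. With 376240 each, they were 1.11 and 0.994. The first 500 bp lay above 1 and promoters lay below 1 at each of the 7 lengths compared. The start region did not keep 1 direction, with a ratio of 0.809 at 50000, of 0.945 at 242336 and of 1.36 at 376240. Its excess in dex was present at 300000 nucleosomes and above. Start region centers were of low rank, standing at a median of the 24.3 percentile in dex and of the 24.7 percentile in mock.

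At low digest, promoters and the first 500 bp lay on the other side of 1 when both digests were read at 242336 nucleosomes per list. Promoters had a ratio of dex to mock of 0.897 at high digest and of 1.12 at low digest, and the first 500 bp had 1.22 at high digest and 0.925 at low digest. Gene bodies lay below 1 at both digests, with 0.983 at high digest and 0.970 at low digest. The contrast depended on list length, since at low digest the first 500 bp had a ratio of 1.11 at 50000 nucleosomes and of 1.03 at 100000, on the same side as at high digest, and promoters one of 1.00 at 50000. With the full lists of low digest, the ratio was 0.873 in promoters and 0.693 in the first 500 bp, below 1 as at high digest. Genes picked at high digest at equal length were also read in the low digest lists, both cut to 242336 nucleosomes. Among the 2434 genes with at least 2 fewer promoter centers in high digest dex, 1289 had more in low digest dex and 360 had fewer. Among the 2362 genes with at least 2 more in high digest dex, 688 had more in low digest dex and 786 had fewer. Over all genes 9538 had more in low digest dex and 5728 had fewer. Both comparisons use their own lists, and the difference between the digests was not tested. By the study's methods, the low digest dex list was also called in another way than the other lists, from pooled replicates.

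**Figure D3:**
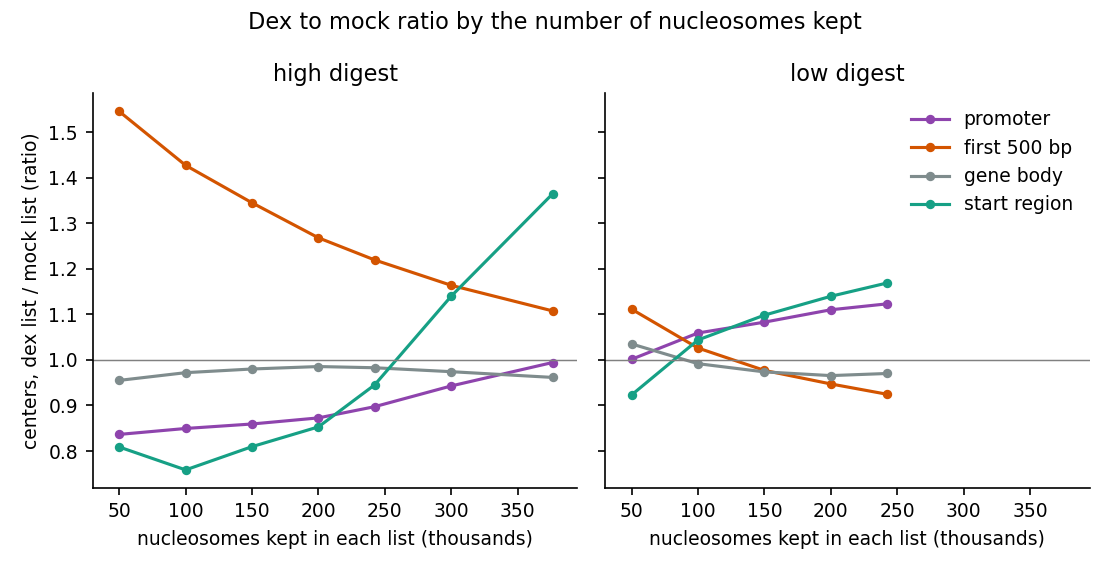
Ratio of centers in the dex list to centers in the mock list (vertical axis) against the number of nucleosomes of highest occupancy kept in each list (horizontal axis, in units of 1000), for 4 windows, at high digest on the left and low digest on the right. At high digest the first 500 bp lies at 1.55 at the shortest length and 1.11 at the longest and promoters at 0.836 and 0.994, while the start region crosses 1 between 242336 and 300000 nucleosomes.

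Positions were compared next, since a count can stay the same while a nucleosome lies elsewhere. Listed positions fell mostly on steps of 10 bp, so smaller shifts could not be seen and equal positions mean the same step. Of promoter nucleosomes in the dex list, 56.3% had a center within 20 bp in the full mock list, and of those in the mock list 39.2% had one in dex. At equal length the shares were 49.3% of dex and 48.7% of mock. In the first 500 bp they were 53.6% of dex and 59.2% of mock at equal length, and in gene bodies 51.3% and 49.4%. Start region nucleosomes were matched least, with 33.5% of dex and 44.5% of mock.

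The first nucleosome of a gene, taken as the first center from 0 to 499 bp downstream of the start, was listed for 25735 genes in dex and 26323 in mock. In the 25656 genes that had one in both full lists, its center lay at a median of 137 bp in dex and 123 bp in mock. It was within 20 bp in 46.4% of these genes (45.8% to 47.0%), nearer the start in dex by more than that in 21.3% and farther in 32.3%. With the equal-length mock list the balance turned, with medians of 136 bp in dex and 153 bp in mock, 31.6% of genes nearer and 20.4% farther in dex. The median shift between the lists was 0 bp with either mock list. The side to which the first nucleosome lay off in the other genes thus followed the length of the mock list.

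The median spacing was the same in both lists, but it had little room to differ. Listed centers lay at least 100 bp apart, mostly in steps of 10 bp, and distances above 250 bp were left out. In the 19120 genes of at least 1500 bp, the median distance from the first to the second center was 160 bp in dex and 160 bp in mock, among genes with both centers at most 250 bp apart. An unbroken row of 4 such centers was listed in 40.9% of these genes in dex, in 37.9% in equal-length mock and in 64.6% in full mock. The middle of the spacing was the same, but its quartiles for the third step were 130 and 190 bp in dex and 140 and 180 bp in full mock.

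The LFY core CCANTGG, where N is any base, reads the same on both strands and occurred in 3366 promoters, or 12.3% of all. Its 3463 sites were covered by a listed nucleosome in 54.9% of cases in dex (53.3% to 56.6%), in 50.1% in equal-length mock (48.4% to 51.7%) and in 64.3% in full mock (62.7% to 65.9%). Over all promoter bases the lists covered 34.7% in dex, 35.3% in equal-length mock and 49.5% in full mock. Sites were thus covered 1.58 times as often as promoter bases in dex, 1.42 times in equal-length mock and 1.30 times in full mock. The promoter bases were not matched to the sites by GC content, which went with the counts above. At equal length 518 sites were covered in dex only and 350 in mock only. Promoters with a site had a median GC content of 34.9%, against 32.3% for those without, and their equal-length ratios of 0.995 and 0.994 were almost the same. A match of 7 letters is a description of sequence and not a bound site.

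Gene groups were read against these shares of all genes. The lists were chosen with earlier results of the data known, no test was made, and each promoter count below stands beside the 35.9% of all genes with at least 2 fewer and 1.13% with at least 2 more centers in the full lists. Among 1082 genes to which the study assigned an LFY ChIP peak, 481 had at least 2 fewer promoter centers in dex and 7 had at least 2 more. Their promoters averaged 2.00 centers in dex and 3.41 in mock, a ratio of 0.588 against 0.693 for all genes. Their median promoter GC content was 30.7%, below the 32.6% of all genes. At equal length they averaged 2.00 centers in dex and 2.00 in mock. Of these genes 97 had at least 2 fewer and 105 at least 2 more, beside 8.87% and 8.61% of all genes.

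Floral identity and organ genes had the lowest promoter ratio of the 12 groups. Their 21 members averaged 1.38 promoter centers in dex and 3.14 in mock, a ratio of 0.439, and 14 had at least 2 fewer in dex while none had more. At equal length they averaged 1.38 in dex and 1.90 in mock, with 9 members lower, 10 equal and 2 higher, where 30.4% of all genes were lower, 40.6% equal and 29.0% higher. Their median promoter GC content was 30.2%. SHP2, a MADS-box gene of fruit and ovule, had 1 promoter center in dex and 4 in mock, and all 4 were kept in the equal-length mock list. AP3, which specifies petals and stamens, had 3 in dex and 6 in mock. UFO, an F-box protein that acts with LFY, had 1 in dex and 3 in mock. SEP2, a MADS-box cofactor of floral organ identity, had 2 in each full list, and the 2 of mock were of low rank and absent at equal length.

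SHP2 shows what such a difference looked like along the gene. Its dex list held centers at -152, 488 and 668 bp within 1000 bp of the start. The mock list held centers at -982, -812, -462, -152, 268, 498 and 668 bp. The nucleosomes at -152 and 668 bp were at the same step of 10 bp in both lists. Those at -982, -812 and -462 bp were listed in mock only.

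Flowering time genes and meristem regulators gave similar full-list values. Among 19 flowering time genes, promoters averaged 2.37 centers in dex and 4.11 in mock, and 10 had at least 2 fewer while none had at least 2 more. At equal length 3 had at least 2 fewer and 3 had at least 2 more, beside 8.87% and 8.61% of all genes. SVP, a repressor of flowering, had 2 promoter centers in dex and 5 in mock, with those at -765, -575 and -345 bp listed in mock only. SPL3, an activator of the floral transition, had 2 in dex and 6 in mock, of which 4 remained at equal length. GI, a clock-associated activator of flowering, had 3 in each full list, and all 3 of mock were absent at equal length. Among 16 shoot meristem regulators, promoters averaged 2.00 centers in dex and 3.69 in mock, and 10 had at least 2 fewer. At equal length they averaged 2.00 in dex and 2.13 in mock, and none of the 16 had at least 2 fewer or at least 2 more. STM, which maintains the shoot meristem, had 1 promoter center in dex and 2 in mock, and CLV1, a receptor kinase of the meristem, had 6 in dex and 5 in mock.

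Callus and root regulators averaged more promoter centers in dex than in mock at equal length. Their 18 members averaged 2.11 promoter centers in dex and 3.67 in full mock, and 9 had at least 2 fewer. At equal length they averaged 2.11 in dex and 1.78 in mock, with 2 members lower, 9 equal and 7 higher, beside the same 30.4%, 40.6% and 29.0% of all genes. AIL7, an AP2-type regulator of growing tissue, had 2 in dex and 5 in full mock, none of which was kept at equal length. LBD18, which acts in lateral root formation, had 2 in dex, 3 in full mock and 0 at equal length. BBM, an AP2-type embryogenesis factor, had 2 in dex and 5 in full mock, of which 4 were kept.

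The start region set other groups apart. Over all genes a center lay there in 45.7% in dex and in 34.0% in equal-length mock. Among 17 genes for SWI/SNF chromatin remodeling subunits and linker histones, a center lay in the start region of 13 in dex and of 3 in equal-length mock. It was in dex only for 10 members and in mock only for none, beside 20.6% and 8.82% of all genes. Against the full mock list they still averaged more in dex, 0.824 centers and 0.647 in mock. Among 15 reference genes of general use, such as those for glyceraldehyde-3-phosphate dehydrogenase and ubiquitin, 10 had a start region center in dex and 1 in equal-length mock. With the full mock list their direction turned, with 0.733 centers in dex and 0.867 in mock. The median start region GC content was 36.8% in both groups, against 32.4% over all genes. Whether members of either group were active is not measured by the nucleosome lists.

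Large gene families allowed the same reading with more members, beside the 45.7% of all genes with a start region center in dex and 34.0% in equal-length mock. Of all genes, 20.6% had one in dex only and 8.82% in mock only. Among 48 core histone genes, 35 had a start region center in dex and 14 in equal-length mock, with 25 in dex only and 4 in mock only. With the full mock list they averaged fewer start region centers in dex, 0.813 against 0.938 in mock. Their promoters averaged 2.90 centers in dex and 2.44 in equal-length mock, and 9 had at least 2 more while 3 had at least 2 fewer, beside 8.61% and 8.87% of all genes. HTA8, an H2A.Z gene, had 2 promoter centers in each full list and 0 in mock at equal length. Core histone genes are similar to one another, and reads that fit several copies were left out by the authors' mapping, so single members are uncertain. Among 134 ribosomal protein genes, 62 had a start region center in dex and 29 in equal-length mock, with 40 in dex only and 7 in mock only. Their share of 46.3% in dex was close to that of all genes, and their 21.6% in equal-length mock was below it. Ribosomal protein genes averaged 0.560 start region centers in dex and 0.507 in full mock. Among 47 photosynthesis genes, 34 had a start region center in dex and 24 in equal-length mock, but they averaged 0.872 centers in dex and 0.957 in full mock.

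Several groups had a start region center in similar numbers of members in dex and equal-length mock, where the shares of all genes were 45.7% and 34.0%. Shoot meristem regulators had one in 6 of 16 members in each list, and floral identity and organ genes in 12 of 21 in dex and 13 in equal-length mock. Among 13 seed storage and oleosin genes, 8 had a start region center in dex and 10 in equal-length mock. Their promoters averaged 3.23 centers in dex and 3.54 in equal-length mock. SESA3, a 2S albumin gene, had 3 promoter centers in dex and 6 in mock. Among 154 disease resistance genes, 68 had a start region center in dex and 61 in equal-length mock, and promoters averaged 2.49 centers in dex and 2.47 in equal-length mock. SUMM2, an immune receptor gene, had 3 in dex and 7 in mock, all of them kept at equal length. Members of this family lie in clusters of related copies, so reads may be lost there as well.

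**Figure D4:**
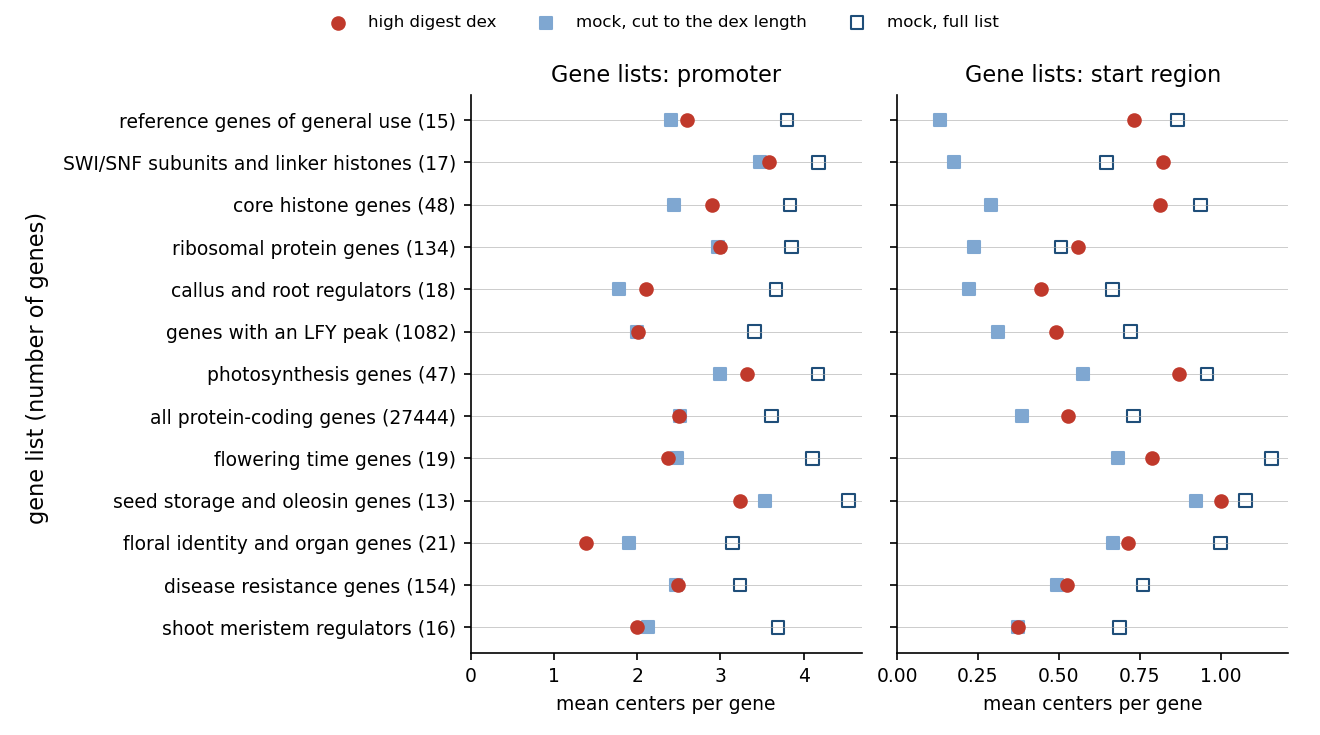
Mean nucleosome centers per gene (horizontal axes) in the promoter (left) and in the start region (right) for 12 gene groups and for all 27444 protein-coding genes, with the number of genes in brackets, as red circles for high digest dex, filled squares for equal-length mock and open squares for full mock. Floral identity and organ genes have the lowest dex value in promoters, 1.38 centers, and reference genes and SWI/SNF genes have the widest gap to equal-length mock at the start.

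The genes with the largest promoter differences were ranked over the 11247 promoters with no other annotated gene, and since their own counts chose them, their values are a description. SAC3A (AT2G39340), named after the SAC3 family of mRNA export factors, had 0 promoter centers in dex and 5 in mock. All 5 were kept at equal length, at -989, -889, -749, -609 and -339 bp. The next gene, 5-FCL, an enzyme of folate metabolism, had 2 in dex and 7 in mock. CSLB02, a cellulose synthase-like gene, had 1 in dex and 7 in mock, of which 5 were kept at equal length. IBH1, a bHLH repressor of cell elongation, had 0 in dex and 5 in mock, at -985, -645, -425, -235 and -105 bp. IBH1 was also among the genes with an LFY peak.

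KRP6, an inhibitor of cyclin-dependent kinases, had 0 promoter centers in dex and 5 in mock, and ESK1, a gene of cell wall xylan acetylation, likewise had 0 in dex and 5 in mock. In the first 500 bp the counts were closer, but the genes were picked for their promoter difference. KRP6 had 3 centers there in dex, at 49, 179 and 379 bp, and 3 in mock, at 39, 339 and 459 bp. ESK1 had 1 in dex and 1 in mock, at 357 and 387 bp. In the low digest lists KRP6, SAC3A and IBH1 each had 2 promoter centers in dex and 0 in mock. The counts in dex and mock were 4 and 2 for 5-FCL, 3 and 1 for CSLB02, and 2 and 1 for ESK1. AT1G02080 had 1 in both, and AT1G63140, an O-methyltransferase, had 0 in both. Of the 8 genes, none thus had fewer promoter centers in dex at low digest.

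Most of the 8 ranked genes with more promoter centers in dex had uncharacterized products. Both lists of 8 end within ties, since 18 genes shared an equal-length difference of 4 centers and 17 one of -4. AT3G61680, an alpha/beta-hydrolase, had 7 promoter centers in dex, 4 in mock and 3 in equal-length mock, and dex listed centers at -621, -401 and -61 bp with no counterpart within 70 bp in mock. AT5G41763 had 5 in dex, 2 in mock and 1 at equal length, with dex centers at -407, -267, -157 and -27 bp. AT3G28120 and UMAMIT44, a transporter of the nodulin family, are neighbors that point away from each other and share upstream nucleosomes, so they are 1 observation. UMAMIT44 had 4 promoter centers in dex and 2 in full mock, both absent at equal length. Among the 8 genes the largest full-list difference was 3 centers, whereas among the 8 genes with fewer it was 6, that of CSLB02 and of AT1G02080.

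**Figure D5:**
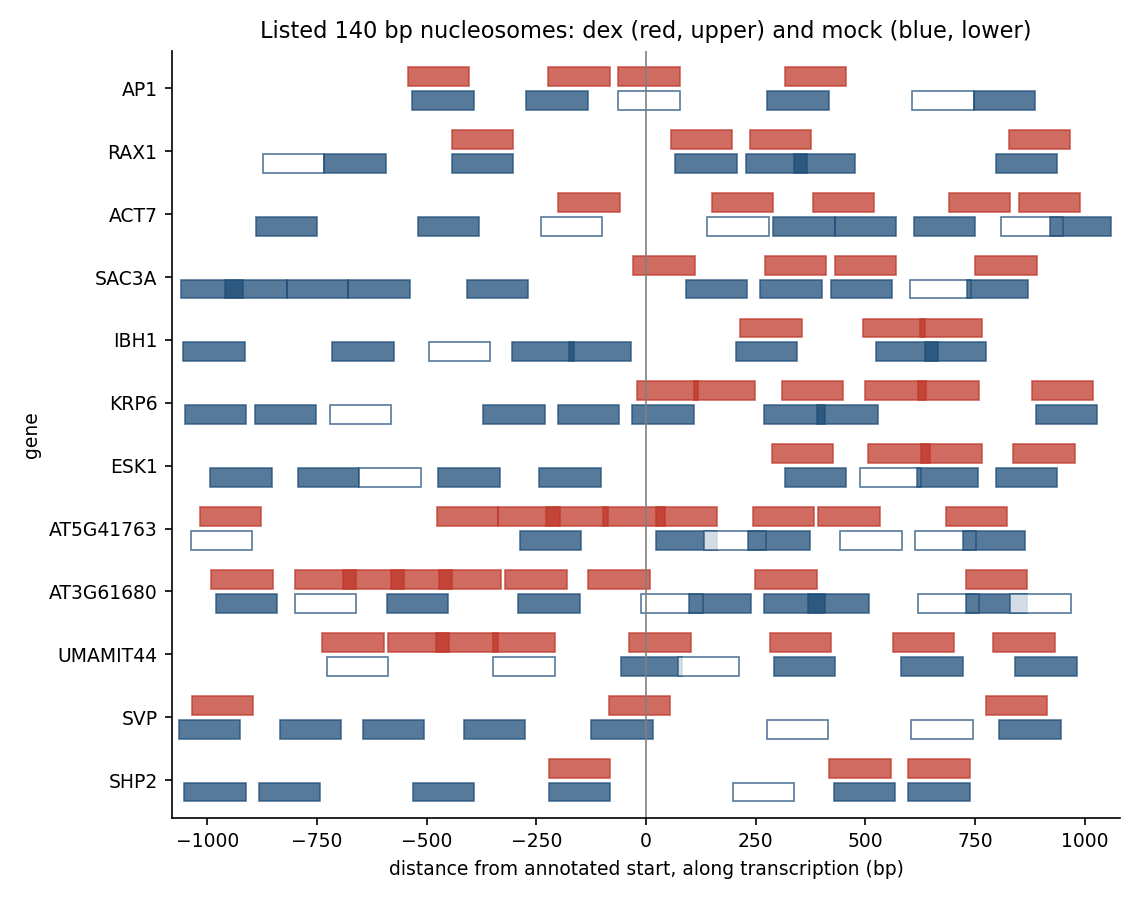
Listed nucleosomes of 140 bp (boxes) by distance from the annotated start in the direction of transcription (horizontal axis, bp) for 12 genes, with high digest dex in red above and high digest mock in blue below, where open boxes are mock nucleosomes left out at equal length. SAC3A, IBH1, KRP6 and ESK1 have no dex box centered upstream of the start and 5 mock boxes each, and at AP1 the upstream box nearest the start lies 50 bp closer to it in dex.

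Single gene bodies differed in density as well. Among bodies of at least 1500 bp, AT4G21570 had 2.25 centers per kb in dex and 6.19 in mock, and 5.63 in equal-length mock. SYP71, a syntaxin gene of membrane traffic, had 3.32 per kb in dex and 6.63 in mock. RKD5, an RWP-RK transcription factor gene, had 2.95 per kb in dex and 5.89 in mock. On the other side NCED2, of the enzyme family that starts abscisic acid synthesis, had 5.81 per kb in dex, 5.29 in mock and 2.11 in equal-length mock. GTE7, a bromodomain protein gene, had 5.86 per kb in dex, 5.55 in mock and 2.47 in equal-length mock. For NCED2 and GTE7 the full lists thus differed by 1 center each, and the wider gap at equal length is that of mock nucleosomes dropped for their low rank.

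RAX1 and ACT7, which the study also examined, had few promoter centers. RAX1 (AT5G23000, listed as MYB37), a MYB gene of axillary meristems, lies on the plus strand of chromosome 5 from 7696135 to 7698022. RAX1 had 1 promoter center in dex, at -373 bp, and 3 in mock, at -803, -663 and -373 bp. The nucleosome at -373 bp was at the same step of 10 bp in both lists. It stood at the 21.1 percentile of the dex list and the 38.7 percentile of the mock list. The first RAX1 nucleosome downstream lay at 127 bp in dex, at the 98.0 percentile, and at 137 bp in mock, at the 68.9 percentile. ACT7, an actin gene used as a control, had 1 promoter center in dex, at -130 bp, and 3 in mock, at -820, -450 and -170 bp.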

How the data were processed

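MNase-seq libraries of 35S:LFY-GR callus, 2 for each of 4 conditions, were mapped by the authors to TAIR10 with Bowtie 1.2.2 per the labels, which also name Picard 2.9.4. Significant nucleosomes were called with DANPOS. The deposited lists are pooled, 1 per condition, and hold the occupancy signal at each summit as the authors' caller gave it. The study's methods name low digest dex as the exception whose replicates were pooled before calling. The list of low digest dex holds 242926 lines, more than the number of nucleosomes that the methods give for it. Its scaling between lists and the depth per sample are not given in the sources used here, so the signal served only as a rank within a list. The low digest libraries carry a digest tag that reads WT, and their digest was taken from their titles.

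Intervals were read as counting from 0 and centers taken at 70 bp from the first base. Genes were 27444 protein-coding models of RefSeq on TAIR10.1, whose nuclear chromosomes have the lengths of TAIR10. Mitochondrial calls, 551 in dex and 555 in mock, were left out. Windows were counted with Python 3.11.15, numpy 2.4.6 and pandas 2.3.3, tested on simulated removals and additions of nucleosomes. Pericentromeric regions were stretches of bins of 500000 bp around the gene-poorest bin with under 30% of bases in protein-coding genes. Shares carry Wilson 95% intervals from scipy 1.17.1, for counting error only.

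The genes and lists described were chosen with earlier results of these data known. Named genes were the 8 most negative and 8 most positive promoter differences with the same sign in full and equal-length lists among promoters free of other genes, 5 each way for gene bodies of at least 1500 bp, up to 4 members per list with the largest absolute equal-length difference, and AP1, RAX1 and ACT7. Gene groups were matched by symbol, locus or product name, and 5 of 1087 identifiers with an LFY peak were not matched. The alternatives were list length, occupancy rank, overlap, gene subset, start annotation and thresholds.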

Additional observations from a re-analysis of the deposited data

Results flagged for a closer look

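With all 4 lists cut to 242336 nucleosomes, the ratio of dex to mock in promoter centers per gene was 0.897 at high digest and 1.12 at low digest. For the first 500 bp it was 1.22 at high digest and 0.925 at low digest. The share of genes with a start region center differed, dex minus mock, by -0.853 percentage points at high digest and by 5.35 at low digest. In these 3 measures dex and mock thus differed in opposite directions at the 2 digests, which was not tested, since each condition has 1 list. It does not hold at every length or in every window. At 50000 nucleosomes the first 500 bp had ratios of 1.55 at high digest and 1.11 at low digest, gene bodies at 242336 had 0.983 at high digest and 0.970 at low digest, and with the full lists promoters had 0.693 at high digest and 0.873 at low digest. The list labelled high digest dex carries a name that reads as low digest dex, while its number of lines fits its label, and whether the name bears on the directions was not tested.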

How the results depend on the processing

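No paired analysis was possible because each condition has 1 pooled list with no values per replicate, and for the same reason no replicate could be left out and no test between conditions was made. Across 75 alternatives of 10 results, 29 stayed within the counting error or within 1.5 times the value given, 41 moved and 5 reversed. The genes outside the pericentromeric regions moved none of them. The overlap of 70 bp moved none either, and it counts among the 29. For intervals of 140 bp it is nearly the same rule as a center inside the window, so it is no separate check. The cause of each move was not tested. The start region and the cuts to fixed lengths were chosen after seeing the data.

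All 5 reversals came with a change of list length. At equal length the ratio of dex to mock was 0.994 in promoters, 1.11 in the first 500 bp, which reversed, and 0.962 in gene bodies. The share of genes with fewer promoter centers was 8.87% and with more 8.61%, and in the first 500 bp 2.03% and 7.07%. The difference in empty promoters, dex minus mock, reversed to -0.616 percentage points from 7.80, and the first nucleosome was within 20 bp in 48.0% of genes. With the higher 50% of each list, the ratios were 0.684, 0.993 and 0.784, the promoter shares 14.7% and 1.75%, those of the first 500 bp 4.29% and 4.25%, the difference in empty promoters 13.6 points, and the first nucleosome shared in 54.4%. With all 4 lists cut to the shortest, the ratios were 0.897 in promoters, 1.22 in the first 500 bp, again reversed, and 0.983 in gene bodies. Cuts to 50000, 100000, 150000, 200000 and 300000 gave promoter ratios of 0.836, 0.849, 0.859, 0.873 and 0.943.

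Genes with no other gene in the promoter gave ratios of 0.535 in promoters and 0.849 in the first 500 bp, more promoter centers in 0.462% of genes, 14.95 points for empty promoters and a shared first nucleosome in 44.8%. With the start of the coding sequence the ratios were 0.704 and 0.891, the difference in empty promoters 6.17 points and the shared first nucleosome 55.5%. A promoter of 500 bp gave a ratio of 0.662. A difference of at least 1 center was met by 65.2% fewer and 7.85% more, and of at least 3 by 14.1% and 0.0729%. Tolerances of 10 and 40 bp gave 34.7% and 59.8% for the first nucleosome. The difference in genes with a start region center, 11.7 points at equal length, reversed to -13.8 with the full lists and to -0.853 with all 4 lists cut to the shortest. It was 8.15 points for genes with no other gene in the promoter and 4.59 with the start of the coding sequence.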

Other observations

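Further members of the gene groups showed how far single promoters departed from their group. GBF2, a bZIP factor gene with an LFY peak, had 4 promoter centers in dex and 5 in full mock, and none of the mock centers was kept at equal length. CENP-C, a centromere protein gene with an LFY peak, had 5 in dex, 6 in full mock and 2 at equal length. LHCB6, an antenna protein of photosystem II, had 6 in dex, 5 in full mock and 2 at equal length. OLEO1, an oil body protein gene of seeds, had the same counts, 6 in dex, 5 in full mock and 2 at equal length. UBQ10, a polyubiquitin gene, had 2 in dex and 1 in full mock at high digest, whereas at low digest it had 7 in dex and 5 in mock. MAF1, a MADS-box repressor of flowering, had 5 in dex, 6 in full mock and 3 at equal length, and SYD, a SWI/SNF ATPase, had 4 in dex, 6 in full mock and 5 at equal length. In these genes the full lists differed by at most 2 promoter centers.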
